A study of Mus musculus with 12 samples.

Results

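Transforming growth factor beta (TGF-beta) signaling was examined in mouse alveolar type 2 (AT2) cells through 10 genes taken by name from a fixed list, of 21878 genes in the expression table. They are the 3 ligands *Tgfb1*, *Tgfb2* and *Tgfb3*, the receptors *Tgfbr1* and *Tgfbr2*, the subunits *Itgav* and *Itgb6* of the activating integrin αvβ6, the SMAD effector *Smad3*, and the feedback inhibitors *Smad7* and *Skil*. All 10 were in the table, and 9 of them, all but *Tgfb1*, were among the 10675 genes that reached 1 FPKM in at least 3 samples and were tested. FPKM is the number of sequenced fragments scaled to transcript length and to library size, so levels can be set side by side between genes.

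TGF-beta is secreted in a latent form, its growth factor dimer held by its own propeptide, and this complex is tethered to matrix or to cell surfaces by latency proteins. Integrin αvβ6, an epithelial receptor that binds an RGD tripeptide in the propeptide, frees the active dimer by pulling on it, and in the injured lung this step is known to place TGF-beta activity at the epithelium. The active ligand assembles a complex of the type II receptor Tgfbr2 and the type I receptor Tgfbr1, whose kinase phosphorylates Smad2 and Smad3. These enter the nucleus with Smad4, while Smad7 blocks the receptor and Skil holds SMADs in check at their target genes.

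The 12 samples were AT2 cells sorted by FACS from C57BL/6 lungs, 3 per group. The gate took EpCAM+ cells that lacked CD31, CD34, CD45, CD24 and Sca-1. The groups were AT2-PBS and AT2-BLM, from mice labelled wild type that the study also describes as Atg5 f/f, and Atg5-/- AT2-PBS and Atg5-/- AT2-BLM, in which an *Nkx2.1*-driven Cre, active in lung epithelium from development onward and not in AT2 cells alone, deletes floxed *Atg5*, a gene needed to form autophagosomes. BLM is bleomycin, an alveolar injury agent given once into the trachea at 2 U/kg, and PBS is its vehicle. The methods give an age of 8 to 12 weeks for mice in BLM injury experiments. Cells were collected 14 days after instillation, with no day named for Atg5-/- AT2-PBS. Nothing in the labels ties a sample to 1 mouse or to a pool, so p-values measure the spread between these samples, which may be technical.

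Several libraries stood apart from their labels. *Sftpc*, the defining AT2 transcript, was listed at 0 in 11 of 12 samples and at 112570 FPKM in AT2-BLM replicate 2, whereas the other 8 AT2 markers were at 1 FPKM or more in every sample. The 3 Atg5-/- AT2-PBS libraries held leukocyte transcripts in spite of the CD45- gate: the summed level of 10 leukocyte markers was 747 to 1043 FPKM there, against 11.9 to 57.7 in AT2-PBS, 54.7 to 133 in AT2-BLM and 54.6 to 240.4 in Atg5-/- AT2-BLM. The same 3 libraries had the highest sums of fibroblast markers (90.2 to 102 FPKM, and 40.0 at most elsewhere) and of club cell markers (23391 to 84980 FPKM, and 11751 at most elsewhere). Transcripts of 4 Y-linked genes summed to 14.2 to 20.9 FPKM in AT2-PBS replicates 2 and 3, AT2-BLM replicate 3 and Atg5-/- AT2-BLM replicates 2 and 3, and to 0.733 FPKM at most in the other 7 libraries, although the methods name male mice for BLM experiments. AT2-BLM replicate 3 had the highest *Krt8* (1266 FPKM, against 565 and 566 in the other AT2-BLM samples). *Atg5* itself ranged from 6.01 to 12.5 FPKM in AT2-PBS and from 6.72 to 10.1 in Atg5-/- AT2-PBS. It averaged 10.4 ± 0.558 FPKM in AT2-BLM and 8.56 ± 0.248 in Atg5-/- AT2-BLM (SD, n = 3). It was not called in either genotype comparison, although the BLM ranges did not overlap. A whole-gene value includes exons outside the floxed part, so it is no direct check of the deletion.

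A gene was called, by the study's criterion, where its fold change reached 1.4 and its unadjusted p lay under 0.05, from limma on log2(FPKM + 1) in 1 fit of the 12 samples. That scale understates the change of genes near or under 1 FPKM. An exact permutation test of 3 samples against 3 could not go below p = 0.1. Adjusted p-values are Benjamini-Hochberg values over all 10675 tested genes.

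Because αvβ6 reads the RGD tripeptide, the coding sequence around it is shown for the 3 ligands, sense strand, with the RGD codons in capitals, from the GENCODE transcripts of mm9 (NCBIM37). In *Tgfb1* the codons are 244 to 246, at the junction of exons 4 and 5, so that the interval chr7:26482008-26482193 (+) also holds an intron. In *Tgfb3* they are codons 261 to 263 in exon 5, at chr12:87403091-87403147 (-). No in-frame RGD was found in *Tgfb2*, and the capitals mark the codons that align with those of *Tgfb3*, codons 261 to 263 in exon 5 at chr1:188454608-188454664 (-).
Tgfb1: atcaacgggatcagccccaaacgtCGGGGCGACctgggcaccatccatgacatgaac
Tgfb3: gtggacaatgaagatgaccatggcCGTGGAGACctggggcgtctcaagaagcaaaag
Tgfb2: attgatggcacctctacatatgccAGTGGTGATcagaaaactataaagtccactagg
The mature growth factors translated from these transcripts are alike, with 72.3% identity between *Tgfb1* and *Tgfb2*, 77.7% between *Tgfb1* and *Tgfb3* and 78.6% between *Tgfb2* and *Tgfb3* over 112 residues. The propeptides, which carry the RGD or the aligned codons, are less alike, with 40.9%, 39.1% and 49.0% identity in the same order.

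*Itgb6* and, less firmly, *Tgfb2* and *Tgfbr2* were called higher with BLM than with PBS in cells with *Atg5*. *Tgfb2* passed the 1 FPKM minimum through BLM samples alone. The *Tgfbr2* call was lost without AT2-BLM replicate 3 and without AT2-PBS replicate 3. The 250 bases before a start site of each, from the RefSeq promoter table (GRCm38.p6), are shown as a description. Capitals mark CAGAC or its reverse complement GTCTG, the short SMAD-binding box searched on both strands.
Itgb6, outermost start, chr2:60722604-60722853 (-): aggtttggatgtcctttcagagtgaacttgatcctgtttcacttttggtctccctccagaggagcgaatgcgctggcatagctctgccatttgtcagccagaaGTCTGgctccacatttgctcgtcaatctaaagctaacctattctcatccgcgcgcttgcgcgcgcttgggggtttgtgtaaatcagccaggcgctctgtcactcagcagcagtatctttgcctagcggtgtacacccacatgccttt
Tgfb2, a start inside the gene, chr1:186705990-186706239 (-): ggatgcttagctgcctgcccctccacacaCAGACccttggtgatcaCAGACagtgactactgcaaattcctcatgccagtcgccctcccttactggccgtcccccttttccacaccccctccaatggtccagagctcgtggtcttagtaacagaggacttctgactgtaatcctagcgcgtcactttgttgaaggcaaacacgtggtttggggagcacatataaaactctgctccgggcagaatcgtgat
Tgfbr2, outermost start, chr9:116175364-116175613 (-): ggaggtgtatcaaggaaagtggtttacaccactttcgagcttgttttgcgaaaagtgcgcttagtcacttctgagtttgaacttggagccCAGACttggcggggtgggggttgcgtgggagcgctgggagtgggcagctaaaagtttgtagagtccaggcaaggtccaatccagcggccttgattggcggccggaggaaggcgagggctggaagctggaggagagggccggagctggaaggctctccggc
The box occurred 1 time in the *Itgb6* window, 2 times in that of *Tgfb2* and 1 time in that of *Tgfbr2*. A second start of *Itgb6* had none, and among members not called with BLM, 1 start of *Tgfbr1* had 1 match and the windows of *Tgfb1*, *Itgav*, *Smad3* and the other *Tgfbr1* start had none. No window is given here for *Tgfb3*, *Smad7* and *Skil*, which were not called either, so called and uncalled members are not compared in full. The box is a frequent 5-letter word, found in 42.2% of 32851 windows of this length, and a match is a description of the letters and not of a bound site.

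With BLM and *Atg5* present, *Itgb6* was higher and, less firmly, *Tgfb2* and *Tgfbr2*, while the other 6 tested members were not called. *Tgfb2* reached the 1 FPKM minimum in BLM samples alone, so its place in the counts that follow is no support for them. Of the 9, 3 were called, all higher, where 28.4% of all tested genes were called in either direction and 20.6% were called higher. Ranges did not overlap for the same 3 members, and for 40.2% of all tested genes. No member was called lower, against 7.77% of all tested genes, and 2 had an adjusted p under 0.05 as well, against 17.4%. The median log2 fold change was 0.23 over the 9 members and 0.17 over all tested genes, so the share and the median of the members lay near those of the whole table. Markers of other cells moved in AT2-BLM too, some higher and some lower. Of 6 markers of AT1 cells, the flat cells of the alveolus, 3 were called higher, all 3 also by the adjusted p, with a median log2 fold change of 0.91 and a summed level of 2353 to 3462 FPKM against 1867 to 2273 in AT2-PBS. Of the 9 leukocyte markers tested 8 were called higher, 1 of them by the adjusted p, with a median of 1.24. Of 5 liver markers 4 were called higher, none by the adjusted p, with a median of 3.18 and sums of 158 to 554 FPKM against 3.34 to 401. Of 3 smooth muscle markers tested 2 were called higher. Airway markers went the other way, with 3 of 4 club cell markers called lower (median -1.73) and the 1 ciliated cell marker tested called lower (-1.47). None of the 5 fibroblast markers tested was called. The part of all these transcripts in the members' levels was not tested.

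The ligand transcripts were almost entirely *Tgfb3*. In AT2-PBS, replicates 1 to 3 measured 14.8, 14.5 and 18.3 FPKM, and in Atg5-/- AT2-PBS 19.7, 14.4 and 17.0. With BLM the values were 37.3, 26.4 and 6.71 FPKM for AT2-BLM, compared with 32.9, 14.96 and 21.4 for Atg5-/- AT2-BLM. AT2-BLM thus held both the highest and the lowest sample of the series, and no pair of groups was called. The log2 fold change with BLM was 0.26 (95% interval -0.76 to 1.28, adjusted p = 0.726), and it was 0.95 and called without AT2-BLM replicate 3 (adjusted p = 0.0564) and -0.21 without AT2-BLM replicate 1. In Atg5-/- AT2 cells the change with BLM was 0.36 (95% interval -0.66 to 1.38).

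*Tgfb2*, the ligand without an RGD, was low with PBS and higher with BLM. It was at 0.294, 0.612 and 0.0191 FPKM in AT2-PBS, compared with 1.37, 0.772 and 3.98 FPKM in AT2-BLM. All 3 AT2-BLM samples were above all 3 AT2-PBS samples, with AT2-BLM replicate 3 far above the other 2. The log2 fold change of FPKM + 1 was 1.10 (SE 0.35, adjusted p = 0.0472), and the ratio of group mean FPKM was 6.63. With the smaller pseudocount of 0.1 the log2 fold change was 2.43. *Tgfb2* was tested at all because 3 samples, AT2-BLM replicates 1 and 3 and Atg5-/- AT2-BLM replicate 3, reached 1 FPKM, so that it passed the minimum through BLM samples alone, and without any 1 of them it was not tested. In Atg5-/- AT2 cells the values were 0.528, 0.413 and 0.142 FPKM with PBS and 0.198, 0.721 and 1.16 FPKM with BLM. Those ranges overlapped, and the change of 0.29 was not called (95% interval -0.47 to 1.04). Between the BLM groups *Tgfb2* differed by -0.74 with *Atg5* loss (95% interval -1.501 to 0.01, adjusted p = 0.637), which was not called, but was called without AT2-BLM replicate 2 (-1.06).

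*Tgfb1*, the ligand often studied in fibrosis, was under 1 FPKM in 11 of 12 samples and was left out of the test. It was at 0.137, 0.323 and 0.145 FPKM in AT2-PBS, compared with 0.446, 0.23 and 0.417 FPKM in AT2-BLM. Without *Atg5* it was at 0.933, 0.449 and 0.896 FPKM with PBS and at 0.363, 0.546 and 1.73 FPKM with BLM. Every Atg5-/- AT2-PBS sample was above every AT2-PBS sample, while AT2-PBS and AT2-BLM overlapped. In a fit with no filter on low values, over 17615 genes, the difference between the PBS groups was called (log2 fold change 0.54, SE 0.23, adjusted p = 0.21 from limma). The Atg5-/- AT2-PBS libraries are those with the leukocyte transcripts given above, and the part of these in the *Tgfb1* level was not tested. In bulk RNA, more cells of a type and more RNA per cell cannot be told apart.

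Summed over the 3 ligands, *Tgfb3* made up 88.1% to 99.1% of the ligand FPKM in 11 samples. AT2-BLM replicate 3 was the exception, with 60.4% *Tgfb3* and 35.9% *Tgfb2*. Over the 12 samples the log2 levels of *Tgfb2* and *Tgfb3* had a Pearson correlation of -0.39, and of 0.37 without that library.

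**Figure D1:**
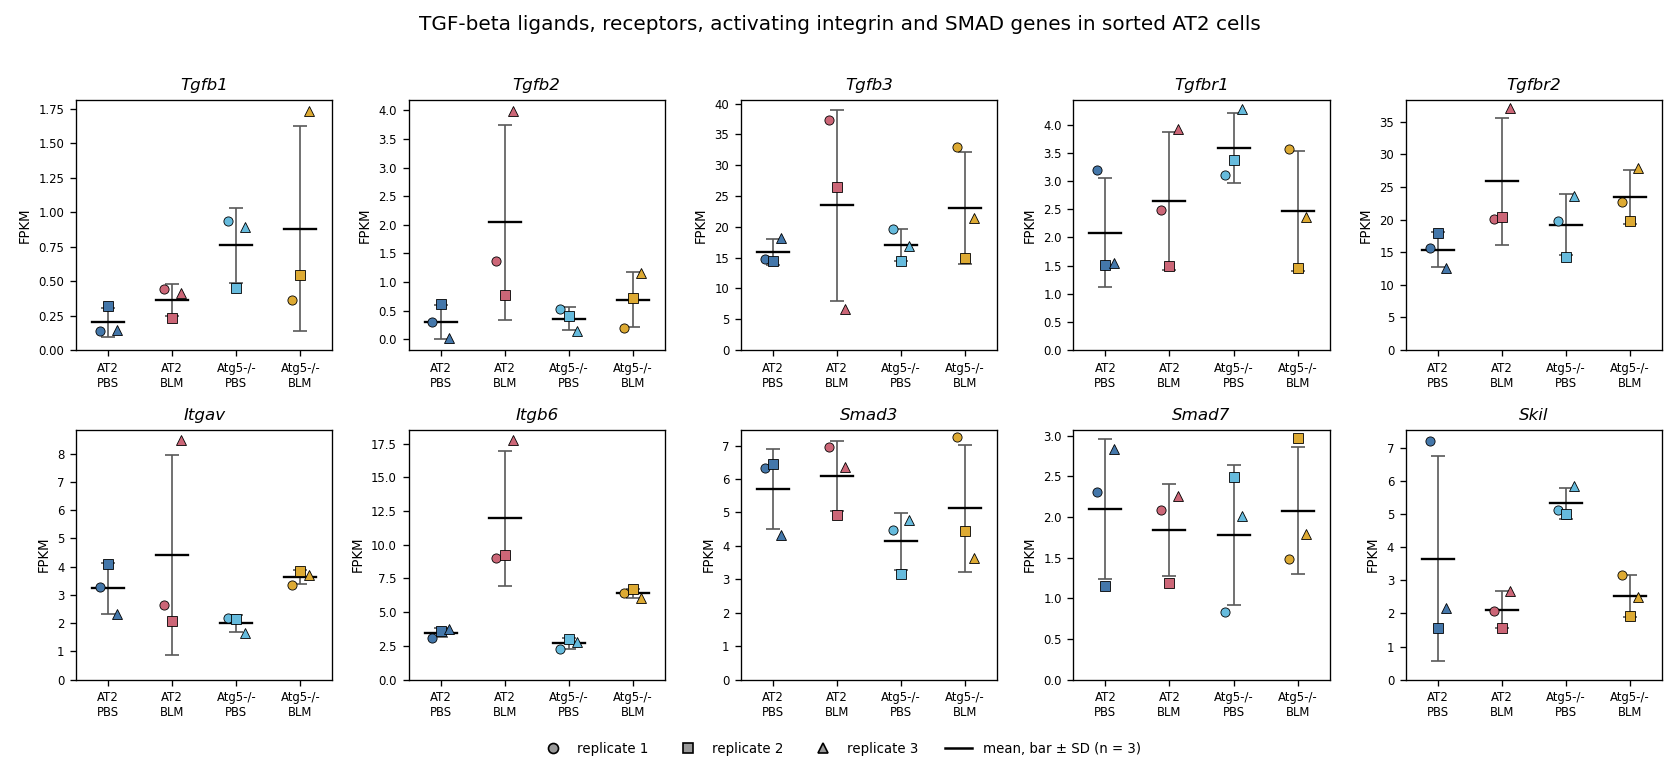
FPKM (linear y axes from about 0, a different scale in each panel) of the 10 genes in the 4 groups on the x axis, with points for samples, horizontal lines for means and bars for ± SD (n = 3). *Itgb6* is at 2.24 to 3.75 FPKM in the 6 PBS samples and at 6.06 to 17.8 FPKM in the 6 BLM samples, and AT2-BLM replicate 3 (red triangle) is the highest sample for *Itgb6*, *Itgav*, *Tgfb2* and *Tgfbr2* and the lowest for *Tgfb3*.

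The receptor *Tgfbr2*, which binds the ligand first, was with *Tgfb3* the most abundant of the 10 transcripts. It was at 15.7, 17.9 and 12.5 FPKM in AT2-PBS, compared with 20.0, 20.4 and 37.1 FPKM in AT2-BLM. The ranges did not overlap, and AT2-BLM replicate 3 was well above the rest. The log2 fold change was 0.67 (SE 0.26), called at an unadjusted p of 0.0222 from limma with an adjusted p of 0.0888, and it was 0.39 and not called without AT2-BLM replicate 3 and 0.54 and not called without AT2-PBS replicate 3. In Atg5-/- AT2 cells it was at 19.8, 14.2 and 23.5 FPKM with PBS and at 22.7, 19.7 and 27.9 FPKM with BLM. These ranges overlapped, and the change of 0.29 was not called (95% interval -0.26 to 0.85).

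*Tgfbr1*, the signaling kinase of the pair, was at 3.20, 1.51 and 1.55 FPKM in AT2-PBS, compared with 2.49, 1.49 and 3.93 FPKM in AT2-BLM. In Atg5-/- AT2 cells it was at 3.10, 3.38 and 4.28 FPKM with PBS and at 3.57, 1.45 and 2.35 FPKM with BLM. All 4 groups overlapped with at least 1 other, and no comparison called it. The largest difference was 0.61 between the PBS groups (95% interval -0.05 to 1.27, adjusted p = 0.271), and without AT2-PBS replicate 1 it was 0.85 and called (adjusted p = 0.123). *Tgfbr2* exceeded *Tgfbr1* in all 12 samples, by 4.21 to 13.7 times on the FPKM scale.

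The clearest change in the family was in the epithelial integrin subunit *Itgb6*, which pairs with αv alone. It was at 3.10, 3.59 and 3.75 FPKM in AT2-PBS, compared with 8.98, 9.20 and 17.8 FPKM in AT2-BLM. Every AT2-BLM sample was far above every AT2-PBS sample, and AT2-BLM replicate 3 stood highest. The log2 fold change was 1.47 (SE 0.23, 95% interval 0.98 to 1.97, adjusted p = 0.00222), a 2.77-fold rise on the FPKM + 1 scale. It was 1.17 without AT2-BLM replicate 3, and it stayed called under every alternative setting and with every library left out in turn. With Y-linked expression as a covariate it was 1.58.

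*Itgb6* was also higher with BLM in Atg5-/- AT2 cells. It was at 2.24, 3.05 and 2.81 FPKM in Atg5-/- AT2-PBS, compared with 6.46, 6.70 and 6.06 FPKM in Atg5-/- AT2-BLM. The ranges were well apart, and the log2 fold change was 1.01 (SE 0.23, 95% interval 0.51 to 1.502, adjusted p = 0.0162). Between the BLM groups the ranges were again apart, with Atg5-/- AT2-BLM lower, and the difference of -0.75 (SE 0.23) was called at an unadjusted p of 0.0066 from limma, with an adjusted p of 0.607. This call rested on AT2-BLM replicate 3, without which the difference was -0.45 and not called, and it was also lost with scaling to *Cdh1* (-0.58). The BLM effect differed between genotypes by -0.46 (95% interval -1.17 to 0.24, adjusted p = 0.46), which was not called, and by -0.17 without AT2-BLM replicate 3. With Y-linked expression as a covariate it was -0.77 and called (adjusted p = 0.16). AT1 markers went the same way as *Itgb6* in these comparisons. With BLM in Atg5-/- AT2 cells 4 of 6 were called higher (median 0.54), against 7.66% of all tested genes. In Atg5-/- AT2-BLM 2 of 6 were called lower than in AT2-BLM (median -0.54), against 3.12%. Between the PBS groups *Itgb6* was lower with *Atg5* loss and not called. There 2 AT1 markers were called higher and 1 lower (median 0.27), against 14.1% and 5.16% of all tested genes. The summed level of the 6 AT1 markers was 1446 to 1739 FPKM in Atg5-/- AT2-PBS and 2176 to 2564 in Atg5-/- AT2-BLM, and their part in the *Itgb6* level was not tested.

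The partner subunit *Itgav* was at 3.28, 4.10 and 2.31 FPKM in AT2-PBS, compared with 2.65, 2.07 and 8.47 FPKM in AT2-BLM. The Atg5-/- AT2-PBS samples measured 2.17, 2.14 and 1.65 FPKM, compared with 3.34, 3.85 and 3.70 FPKM in Atg5-/- AT2-BLM. The last 2 groups did not overlap, but the log2 difference of 0.64 was not called (95% interval -0.11 to 1.38, adjusted p = 0.319). With *Atg5* present the change with BLM was 0.19, and -0.31 without AT2-BLM replicate 3. The ratio of *Itgb6* to *Itgav* FPKM was 0.877 to 1.70 in the 6 PBS samples, 2.10 to 4.45 in AT2-BLM and 1.64 to 1.93 in Atg5-/- AT2-BLM. The *Itgav* locus in mm9 overlaps Gm13684 and Dnmt3l-ps1 on the other strand, and reads of these could not be told from its own if the counting ignored strand.

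*Smad3*, the SMAD most tied to fibrotic target genes, was called in none of the comparisons. It was at 6.32, 6.45 and 4.32 FPKM in AT2-PBS, compared with 6.97, 4.93 and 6.38 FPKM in AT2-BLM. Without *Atg5* it was at 4.47, 3.17 and 4.77 FPKM with PBS and at 7.27, 4.45 and 3.64 FPKM with BLM. Groups overlapped within each comparison, and the change with BLM was 0.09 with *Atg5* (95% interval -0.44 to 0.62) and 0.22 without (95% interval -0.30 to 0.75).

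*Smad7*, the inhibitory SMAD that a TGF-beta signal normally induces, was low and variable in every group. It was at 2.30, 1.15 and 2.84 FPKM in AT2-PBS, compared with 2.08, 1.19 and 2.25 FPKM in AT2-BLM. Without *Atg5* it was at 0.83, 2.50 and 2.01 FPKM with PBS and at 1.48, 2.97 and 1.79 FPKM with BLM. No comparison called it, and the change with BLM was -0.10 with *Atg5* (95% interval -0.76 to 0.55) and 0.17 without (95% interval -0.49 to 0.83).

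*Skil*, which encodes the SMAD corepressor SnoN, was the 1 member called lower with BLM than with PBS, in Atg5-/- AT2 cells. It was at 5.13, 5.0001 and 5.86 FPKM in Atg5-/- AT2-PBS, compared with 3.18, 1.91 and 2.50 FPKM in Atg5-/- AT2-BLM. The ranges did not overlap, and the log2 difference was -0.86 (SE 0.35), called at an unadjusted p of 0.0316 from limma with an adjusted p of 0.176. The call was lost without any 1 of the 3 Atg5-/- AT2-PBS libraries (-0.80 to -0.89), without Atg5-/- AT2-BLM replicate 2 (-0.73) or 3 (-0.86), and with Y-linked expression as a covariate (-0.61). In cells with *Atg5*, *Skil* was at 7.22, 1.57 and 2.17 FPKM with PBS and at 2.07, 1.57 and 2.69 FPKM with BLM. AT2-PBS replicate 1 was the highest sample of the series, and without it the difference between the PBS groups was 1.15 and called (adjusted p = 0.00555), against 0.64 and not called with it. The BLM effect did not pass the test of a difference between genotypes (-0.45, 95% interval -1.54 to 0.63).

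By mean FPKM the order in AT2-PBS was *Tgfb3* and *Tgfbr2* (15.9 ± 2.09 and 15.4 ± 2.71, SD, n = 3), then *Smad3* (5.69 ± 1.19), *Skil* (3.65 ± 3.11), *Itgb6* (3.48 ± 0.338) and *Itgav* (3.23 ± 0.892), then *Smad7* and *Tgfbr1* (2.10 ± 0.861 and 2.08 ± 0.965), and last *Tgfb2* and *Tgfb1* (0.308 ± 0.297 and 0.202 ± 0.105). Only the steps from *Tgfbr2* to *Smad3* and from *Tgfbr1* to *Tgfb2* were free of overlap between neighbours in this order. In AT2-BLM *Itgb6* averaged 11.98 FPKM, after *Tgfbr2* (25.8 ± 9.74) and *Tgfb3* (23.5 ± 15.5), and all of its samples were above all those of *Smad3* (6.09 ± 1.05), the next in order.

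In the comparison of Atg5-/- AT2-BLM with AT2-BLM, 1 of the 9 tested members was called (*Itgb6*, lower), where 5.16% of all tested genes were called and 3.12% were called lower. Ranges did not overlap for *Itgb6* alone among the 9, and for 13.4% of all tested genes. No member and 1 gene of the whole table (0.00937%) had an adjusted p under 0.05 and the required fold here, against 841 genes at an unadjusted p under 0.05 by limma. With PBS, *Atg5* loss called none of the 9 members, at a background of 19.3% in either direction, 14.1% higher, 5.16% lower and 11.2% with the adjusted p, and only *Itgav* and *Itgb6*, both lower, had ranges that did not overlap (28.9% of all tested genes). None of the 9 had an unadjusted p under 0.05 in that comparison, against 2389 of all tested genes. Between Atg5-/- AT2-BLM and Atg5-/- AT2-PBS, 2 of 9 were called (*Itgb6* higher, *Skil* lower), where 18.4% of all tested genes were called, 7.66% higher and 10.7% lower. *Itgb6* alone also passed with the adjusted p (8.65% of all tested genes), and 3 members, *Itgb6*, *Itgav* and *Skil*, had ranges that did not overlap (24.9%). For the difference of the BLM effect between genotypes, 0 of 9 were called and 0 had an unadjusted p under 0.05, where 20.2% of all tested genes were called, 5.02% higher, 15.2% lower and 7.89% with the adjusted p. The comparisons share samples, so these counts are not independent of each other.

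**Figure D2:**
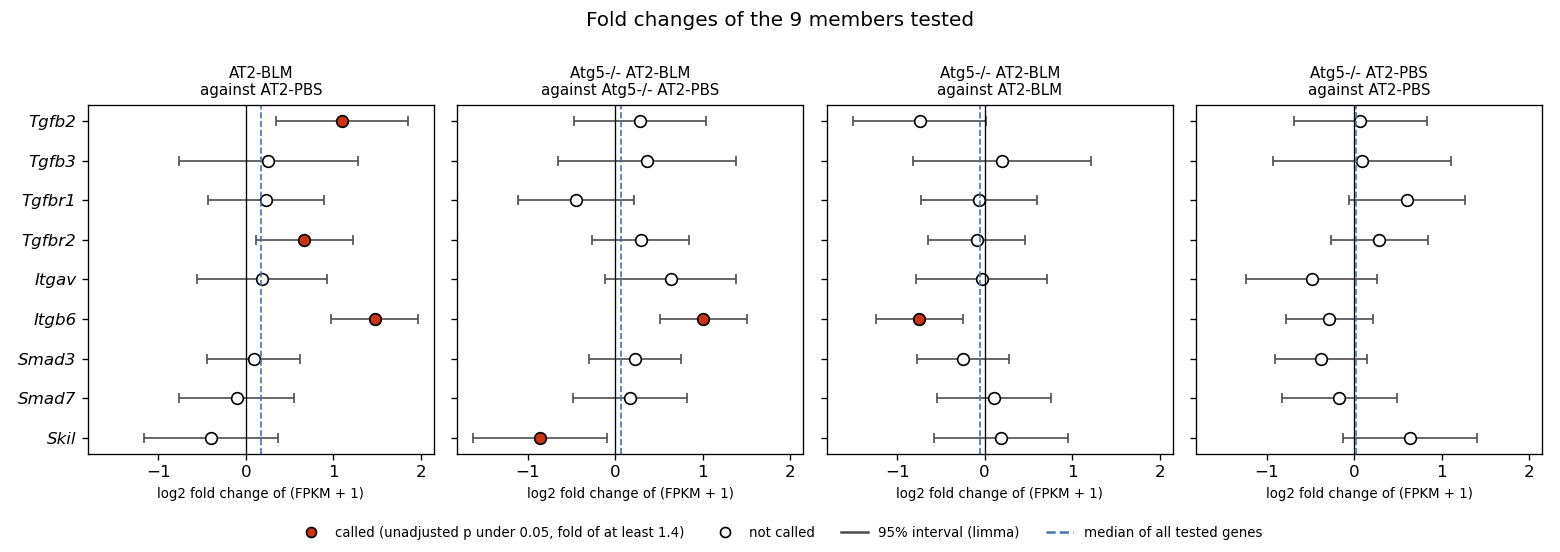
Log2 fold changes of FPKM + 1 (x axis) with 95% intervals for the 9 tested members (y axis) in 4 comparisons, 1 panel each, with called members in red and the median of all tested genes as a dashed line. *Itgb6* is the member called in both BLM comparisons (1.47 with *Atg5* and 1.01 without), and no member is called between the PBS groups.

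Scaling matters for the split of the whole table. In AT2-BLM against AT2-PBS, 72.6% of the called genes were higher, against 46.9% with quantile normalization, 53% with median-ratio scaling and 43.4% with scaling to *Cdh1*, since these moved the median of all tested genes from 0.17 to between -0.015 and 0.035. In Atg5-/- AT2-PBS against AT2-PBS, the share of called genes that were higher was 73.2%, and it was 42.6% with quantile normalization and 97.2% with scaling to *Cdh1*. In Atg5-/- AT2-BLM against AT2-BLM the share was 39.6%, and 79.8% with scaling to *Cdh1* and 50.7% with median-ratio scaling. In Atg5-/- AT2-BLM against Atg5-/- AT2-PBS it was 41.7%, and 51.8% with quantile normalization and 4.61% with scaling to *Cdh1*. *Itgb6* stayed called higher in AT2-BLM against AT2-PBS under all of these scalings. Relative to the median of all tested genes, *Itgb6* was higher by 1.30, *Tgfb2* by 0.93 and *Tgfbr2* by 0.50 in that comparison.

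The rest of the pathway was followed through 44 further genes in 6 lists, of which 33 were tested. With BLM in cells with *Atg5*, 7 were called higher and 2 lower (27.3% of the 33, close to the 28.4% of all tested genes). The calls lay in 3 of the lists, which were written with earlier results of these data known, so the split by list is a description. The classic targets held 6 of them, 5 higher and 1 lower of 8 tested, with a median log2 fold change of 1.26. The inhibitors held 2 of 10 tested, and processing and activation 1 of 8. None of the 3 latency genes, 2 co-receptor genes and 2 SMAD and adaptor genes that were tested was called.

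*Cdkn1a*, which encodes the cell cycle inhibitor p21 and also answers to p53, had the largest rise on the log2(FPKM + 1) scale. By the ratio of group mean FPKM, *Cdkn1a* (6.64) came after *Ctgf* (8.94) and *Fn1* (6.89). It was at 73.7, 18.7 and 30.6 FPKM in AT2-PBS, compared with 303, 238 and 276 FPKM in AT2-BLM, with no overlap (log2 fold change 2.92, SE 0.36, adjusted p = 0.000945). Atg5-/- AT2-BLM samples were at 107, 131 and 137 FPKM, a range wholly under that of AT2-BLM (-1.12, unadjusted p = 0.00963 from limma, adjusted p = 0.607). The other called cell cycle inhibitor, *Cdkn2b*, was at 10.6, 9.56 and 10.1 FPKM in AT2-PBS, compared with 16.5, 21.3 and 71.5 FPKM in AT2-BLM (1.46, SE 0.40, adjusted p = 0.0292). AT2-BLM replicate 3 was again far above, and without it the change was 0.83.

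*Ctgf*, the matricellular factor used as a readout of TGF-beta and YAP activity, was at 4.26, 1.87 and 2.71 FPKM in AT2-PBS, compared with 16.4, 7.41 and 55.3 FPKM in AT2-BLM. All AT2-BLM samples were higher, with a log2 fold change of 2.40 (SE 0.59, adjusted p = 0.0178). Atg5-/- AT2-BLM samples were at 2.75, 7.13 and 11.0 FPKM, a range that overlapped with AT2-BLM, and the difference of -1.498 was called at an unadjusted p of 0.0253 from limma (adjusted p = 0.619). That call was lost without AT2-BLM replicate 3 (-0.76) and without Atg5-/- AT2-BLM replicate 1 (-1.03). *Fn1*, which encodes the matrix protein fibronectin, was called higher with BLM (1.28, SE 0.48, adjusted p = 0.0836), from 0.151 to 0.547 FPKM in AT2-PBS to 1.03 to 5.37 in AT2-BLM. That call was lost without AT2-BLM replicate 3 (0.83) or AT2-PBS replicate 3 (1.14).

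A pair of pathway genes fell with BLM. *Tgfbi*, a matrix protein named for its induction by TGF-beta, was at 29.5, 26.4 and 12.8 FPKM in AT2-PBS, compared with 5.02, 6.34 and 9.55 FPKM in AT2-BLM (-1.54, SE 0.29, adjusted p = 0.0058). Its direction was opposite to that of the other called classic targets. *Bambi*, a pseudoreceptor that dampens TGF-beta receptors, was at 21.2, 20.5 and 21.6 FPKM in AT2-PBS, compared with 5.80, 5.56 and 6.51 FPKM in AT2-BLM. The AT2-BLM samples were tightly grouped and far below (-1.67, SE 0.27, adjusted p = 0.00256).

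**Figure D3:**
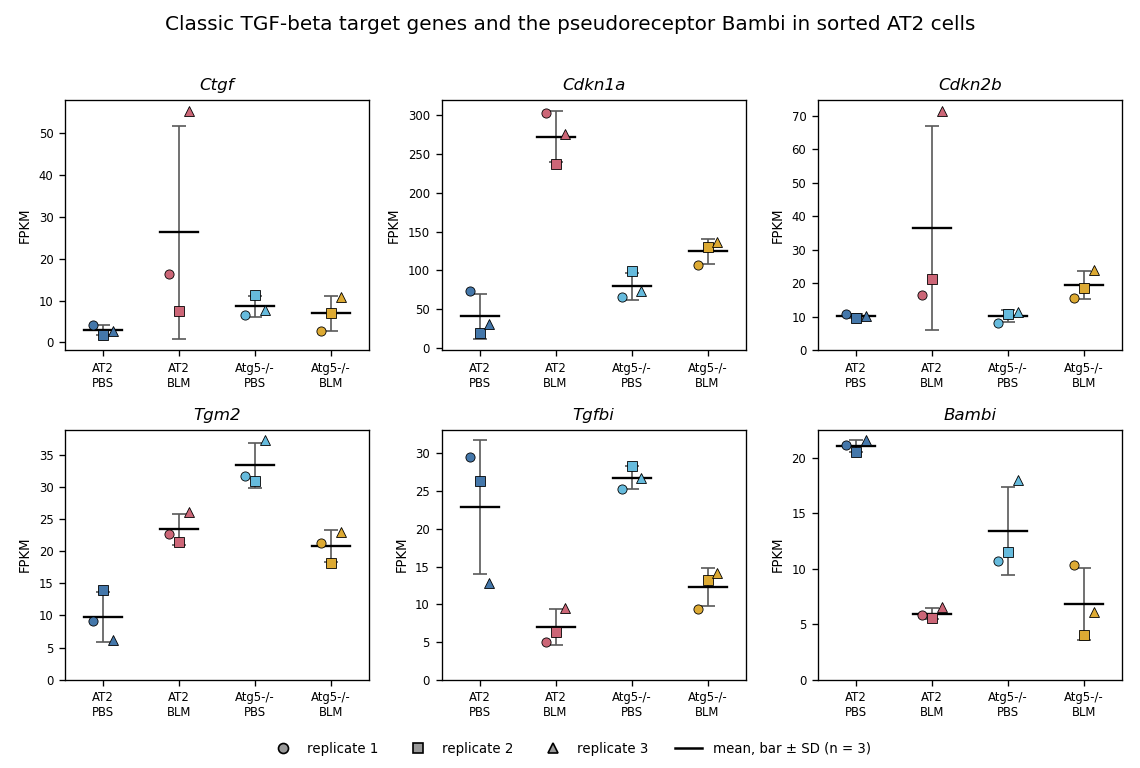
FPKM (linear y axes, a different scale in each panel) of 5 classic target genes and *Bambi* in the 4 groups on the x axis, with points for samples, horizontal lines for means and bars for ± SD (n = 3). *Cdkn1a* is at 238 to 303 FPKM in AT2-BLM and at most 137 elsewhere, *Bambi* and *Tgfbi* are lower in AT2-BLM than in AT2-PBS, and AT2-BLM replicate 3 (red triangle) is far above all other samples for *Ctgf* and *Cdkn2b*.

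Comparing Atg5-/- AT2-BLM with AT2-BLM, 4 of the 33 were called (12.1%, at a background of 5.16%), *Ctgf*, *Cdkn1a* and *Tgif1* lower and *Tgfbi* higher, none with an adjusted p under 0.607. *Tgif1*, a SMAD corepressor, was at 13.4, 12.3 and 16.9 FPKM in AT2-BLM, against 8.56, 10.9 and 8.98 FPKM in Atg5-/- AT2-BLM (-0.53, SE 0.17), and its call was lost when AT2-BLM replicate 3 (-0.41) was left out, and likewise Atg5-/- AT2-BLM replicate 1 (-0.47). *Tgfbi* was at 9.39, 13.2 and 14.2 FPKM in Atg5-/- AT2-BLM, and its difference of 0.76 (SE 0.29) lost its call without AT2-BLM replicate 1 (0.57), AT2-BLM replicate 2 (0.72), Atg5-/- AT2-BLM replicate 2 (0.69) and Atg5-/- AT2-BLM replicate 3 (0.65), each left out alone.

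With PBS, *Atg5* loss went with 13 of the 33 called higher and 2 lower (45.5%, at a background of 19.3%). *Snai1*, *Mmp2* and *Itgb5* reached the 1 FPKM minimum only through the Atg5-/- AT2-PBS libraries, so their place in these counts is no support for them. The classic targets had 6 of 8 called higher, the latency genes 2 of 3, the co-receptors 2 of 2, and processing and activation 3 higher and 1 lower of 8. *Nrros*, which tethers latent TGF-beta on macrophages and microglia, was at 7.75, 8.83 and 5.72 FPKM in Atg5-/- AT2-PBS, compared with 0.378 to 0.700 in AT2-PBS (2.45, SE 0.28, adjusted p = 0.000113). *Ltbp4*, a matrix latency protein, was at 6.14, 7.69 and 5.99 FPKM against 0.460 to 2.73 (1.79, SE 0.28, adjusted p = 0.000978). The gelatinase *Mmp9*, made by leukocytes, was at 6.75, 8.10 and 4.05 FPKM against 0.420 to 0.696 (2.23, SE 0.42, adjusted p = 0.00328). In all 3 genes the groups were far apart. *Fn1* (2.02), *Angptl4* (2.04), an inhibitor of lipoprotein lipase, and *Tgm2* (1.74), a crosslinking enzyme, were also called higher, with adjusted p of 0.0143, 0.0102 and 0.000283.

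These are the libraries with transcripts of other cells. Liver markers shifted the most, with 5 of 5 called higher by the adjusted p, a median log2 fold change of 6.16 and sums of 1470 to 2526 FPKM against 3.34 to 401 in AT2-PBS. Alveolar macrophage markers had 4 of 4 called higher (median 3.79), with sums of 729 to 1102 FPKM against 11.4 to 37.2. Of the 10 leukocyte markers, 9 were at 1 FPKM or more in all 3 Atg5-/- AT2-PBS libraries and none was listed at 0, whereas 4 reached that level in all AT2-PBS libraries, with *Itgam* and *Cd3e* at 0 in at least 1. The defining marker *Ptprc* (CD45) was at 7.54 to 8.46 FPKM there and at 2.64 at most elsewhere. Of the 7 fibroblast markers, 5 were at 1 FPKM or more in all 3 Atg5-/- AT2-PBS libraries and 1 in all AT2-PBS libraries. The part of these transcripts in the pathway levels was not tested.

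**Figure D4:**
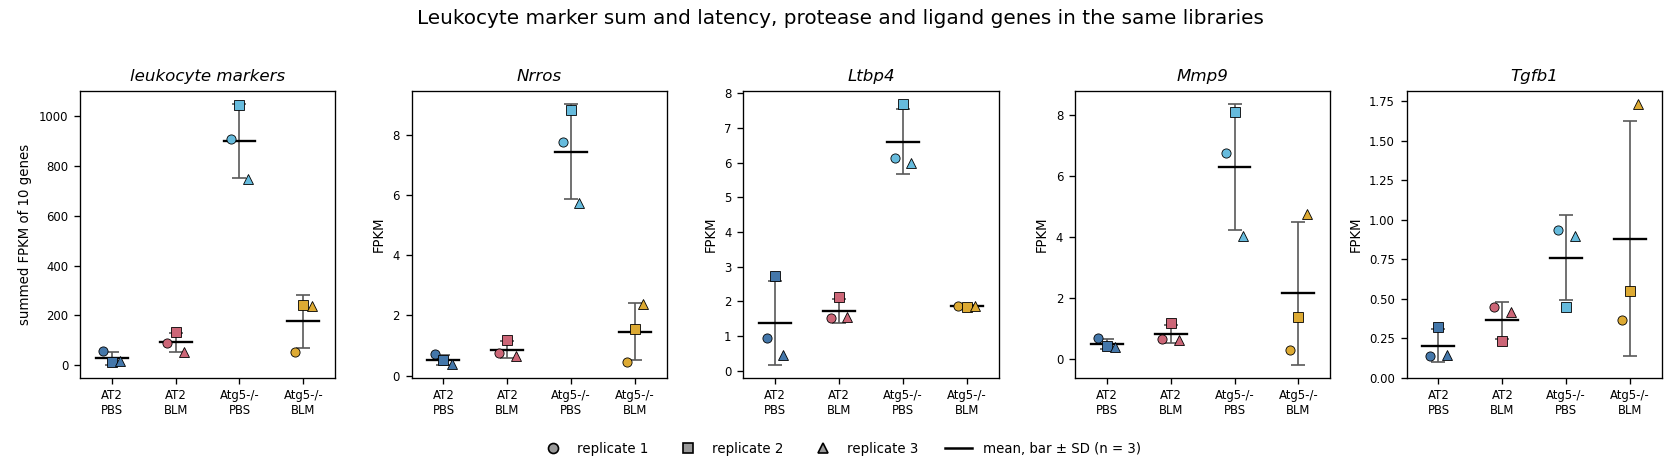
Summed FPKM of 10 leukocyte markers and FPKM of *Nrros*, *Ltbp4*, *Mmp9* and *Tgfb1* (linear y axes, a different scale in each panel) in the 4 groups on the x axis, with points for samples, horizontal lines for means and bars for ± SD (n = 3). The marker sum is at 747 to 1043 FPKM in Atg5-/- AT2-PBS, compared with most 240.4 elsewhere, and the same 3 samples are the highest for *Nrros* and *Ltbp4*.

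Between the Atg5-/- groups, 9 of the 33 were called, all lower with BLM (27.3%, at a background of 18.4%), led by *Angptl4* (-2.35, SE 0.46, adjusted p = 0.00748) and *Nrros* (-1.84, SE 0.28, adjusted p = 0.00156). *Mmp9* (-1.43), *Ltbp4* (-1.41), *Snai1* (-1.15), a repressor of epithelial genes, and *Mmp2* (-1.13), a gelatinase of fibroblasts, followed. As said above, *Snai1*, *Mmp2* and *Itgb5* passed the minimum only through the Atg5-/- AT2-PBS libraries, so they are no support for this count. The *Snai1* call was lost without Atg5-/- AT2-PBS replicate 2 (-0.86) or Atg5-/- AT2-BLM replicate 1 (-0.84), and the *Mmp9* value was -0.93 without Atg5-/- AT2-BLM replicate 1. The leukocyte marker sum was lower in the BLM group of this pair too (54.6 to 240.4 against 747 to 1043 FPKM), and its part was not tested. For the difference of the BLM effect between genotypes, 12 of the 33 were called, all lower in Atg5-/- AT2 cells (36.4%, at a background of 20.2%), with *Ctgf* (-2.80), *Cdkn1a* (-2.27), *Nrros* (-2.12), *Fn1* (-2.07), *Tgm2* (-1.90) and *Ltbp4* (-1.71) the largest. This term uses the Atg5-/- AT2-PBS libraries as its baseline, and *Snai1*, *Mmp2* and *Itgb5* are no support for its count either.

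The remaining pathway genes fixed for description were low or not called. *Smad2*, the partner of Smad3, was at 1.58 to 2.99 FPKM over the 12 samples, and *Smad4*, the common SMAD, at 0.398 to 1.92 FPKM, and neither was called in any comparison. *Itgb8*, another beta subunit in the processing and activation list, which also holds *Itgb1*, *Itgb3* and *Itgb5*, was listed at 0 in 11 samples and at 0.0314 FPKM in Atg5-/- AT2-BLM replicate 1. *Tgfbr3*, the co-receptor betaglycan, stayed at 0.0269 to 0.871 FPKM. *Ltbp1*, the main latency protein for *Tgfb1*, was at 0 to 0.0678 FPKM in AT2-PBS and at 0.199 to 0.656 in AT2-BLM. It was at 0.412 to 1.22 in Atg5-/- AT2-PBS and at 0.0496 to 0.275 in Atg5-/- AT2-BLM. In the limma fit with no filter, *Ltbp1* was called between the PBS groups (0.73, adjusted p = 0.0195). That fit also called it lower with BLM in Atg5-/- AT2 cells (-0.55, adjusted p = 0.0812) and for the genotype difference (-1.02, adjusted p = 0.0384). *Itgb8*, *Tgfbr3* and *Ltbp1* did not reach the minimum for the test.

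The genes most like each member over the 12 samples were named from 10674 tested genes by Pearson correlation of log2(FPKM + 1), as a description, since the samples share groups and libraries. For *Itgb6* they were *Ajuba* (0.966) and *Acp1* (0.965), and both stayed above 0.93 without AT2-BLM replicate 3. For *Tgfb2* they were *Arf2* (0.952) and *Strap* (0.947), and for *Tgfb3* *St5* (0.928) and *Noxa1* (0.882). For *Tgfbr2* they were *Dhx33* (0.947) and *Arhgef26* (0.942), and for *Tgfbr1* *Klf10* (0.904), itself known as a TGF-beta-inducible factor, and *Rabgef1* (0.895). For *Itgav* they were *Clcn5* (0.934) and *Myof* (0.918), for *Skil* *Map3k1* (0.906) and *Bpifb1* (0.883), for *Smad7* *Ptpn21* (0.909) and *Sesn3* (0.831), and for *Smad3* *Dusp11* (0.86). Among the members themselves the highest correlation was between *Tgfb2* and *Itgb6* (0.801, and 0.596 without AT2-BLM replicate 3), and that of *Tgfbr1* and *Skil* was 0.764 (0.85 without it).

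In mm9 the genes lie on separate chromosomes or far apart, with *Tgfb1* at chr7:26472021-26490096 (+), *Tgfb2* at chr1:188447065-188529871 (-) and *Tgfb3* at chr12:87397694-87419991 (-). *Tgfbr1* lies at chr4:47366094-47427803 (+), *Tgfbr2* at chr9:115993415-116084383 (-) and *Smad3* at chr9:63494574-63605801 (-). *Itgav* lies at chr2:83564554-83647073 (+), *Itgb6* at chr2:60436349-60560700 (-) and *Skil* at chr3:30993980-31021499 (+). The *Tgfb2* interval holds a SNORA70 copy on the other strand, and apart from it and *Itgav* none of the 9 overlaps another annotated gene.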

How the data were processed

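RNA of sorted AT2 cells was sequenced in 4 groups of 3 samples. Per the labels and the study's methods, the authors trimmed reads (Trimmomatic 0.36), aligned them to mm9 and deposited FPKM per gene from Cufflinks 2.2.1. The methods name STAR, and the submitters' processing notes HISAT2 2.2.1.0. A stranded kit is named in the methods and not in the labels, and whether a stated DESeq normalization is in the deposited FPKM is not given in the sources used here. FPKM sums were 390141 to 549169 per sample. No read counts were used, so absolute depth is unknown and no counting interval is given. Steps of low values put depths at about 0.927 to 1.16 times that of AT2-PBS replicate 1. Replicate libraries correlated at 0.938 to 0.987, and none was a duplicate.

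The limma package (3.58.1, under R 4.3.3) was applied to log2(FPKM + 1), with moderated variances that follow the mean, over the 10675 genes that reached 1 FPKM in 3 or more samples. Coordinates are GENCODE's of NCBIM37, and ligand sequences were translated and aligned with Biopython 1.88. Figures were drawn with matplotlib 3.10.9. The test was checked on simulated data. The members, lists and rules were chosen with earlier results of these data known. The text names all members, up to 6 called pathway genes per comparison with the largest change, 8 fixed pathway genes and 2 most correlated genes per member. Of these, 2 are not reported here. *Tgif1* values beyond that rule, *Krt8* and *Ptprc* were chosen after values were seen. Alternatives were leaving out each sample, a replicate block, a fit of the compared groups alone, a constant variance, a pseudocount of 0.1, no filter, 3 scalings (quantile, median-ratio, *Cdh1*), and calls at the adjusted p or a fold of 2. Leaving out the Atg5-/- AT2-PBS group and Y-linked expression as a covariate were added after seeing the data.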

Additional observations from a re-analysis of the deposited data

Results flagged for a closer look

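The BLM effect differed between genotypes, by limma's interaction test with an adjusted p under 0.05, for 5 of the 33 tested pathway genes. It did so for none of the 9 tested members and for 7.89% of all 10675 tested genes. The change with BLM was 2.92 with *Atg5* and 0.65 without for *Cdkn1a* (difference -2.27, SE 0.52, adjusted p = 0.0193). It was 0.28 and -1.84 for *Nrros* (difference -2.12, SE 0.39, adjusted p = 0.00742), and 1.24 and -0.66 for *Tgm2* (difference -1.90, SE 0.32, adjusted p = 0.00451). It was 0.31 and -1.41 for *Ltbp4* (difference -1.71, SE 0.40, adjusted p = 0.0216), and 0.66 and -0.30 for *Tgif1* (difference -0.97, SE 0.24, adjusted p = 0.0317). The baseline of the second effect is Atg5-/- AT2-PBS, whose summed leukocyte markers were 747 to 1043 FPKM against 54.6 to 240.4 in Atg5-/- AT2-BLM. Markers of other cells differed in the same test, with 5 of 5 fibroblast, 3 of 4 club cell and 5 of 5 liver markers called lower (medians -3.30, -3.02 and -6.02). All 9 leukocyte and 4 alveolar macrophage markers tested were called lower as well (medians -3.78 and -3.76). Of 8 AT2 markers tested 3 were called higher and 1 lower, and none of 3 endothelial markers was called. The part of all these transcripts in the differences above was not tested.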

How the results depend on the processing

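*Itgb6* stayed called higher in AT2-BLM against AT2-PBS under every alternative. The count of members called there was 2 to 3 with 1 library left out, but the members behind it changed. *Tgfb2* went untested where a library that carried it over the minimum was the one left out. *Tgfbr2* lost its call without AT2-BLM replicate 3 (0.39) and without AT2-PBS replicate 3, and *Tgfb3* was called only without AT2-BLM replicate 3 (0.95). Against the main count of 1 for Atg5-/- AT2-BLM against AT2-BLM, 2 members were called with quantile normalization and with Y-linked expression as a covariate (*Itgb6* and *Tgfb2*), 0 with scaling to *Cdh1*, at an adjusted p under 0.05 or at a fold change of at least 2, and 0 to 2 with 1 library left out (0 without AT2-BLM replicate 3). For Atg5-/- AT2-PBS against AT2-PBS (main 0) the count was 3 with quantile normalization and with scaling to *Cdh1*, 1 with no filter and 1 with only the compared groups, and 0 to 2 with 1 library left out (2 without AT2-PBS replicate 1). For Atg5-/- AT2-BLM against Atg5-/- AT2-PBS (main 2) it was 1 at an adjusted p under 0.05 or a fold change of at least 2, and 1 to 3 with 1 library left out. For the genotype difference of the BLM effect (main 0) it was 1 with scaling to *Cdh1*, 2 with the Y-linked covariate, and 0 to 1 with 1 library left out. Leaving out the Atg5-/- AT2-PBS group kept the counts at 3 and 1.

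Deviations of same-numbered samples from their group means correlated at -0.239 to 0.227. These values cannot show whether such samples shared a batch or a litter. With a replicate block 1 member, *Tgfbr1* (0.61), was called between the PBS groups, and no other call of a member or named gene changed.

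Signs turned only for uncalled members. In AT2-BLM against AT2-PBS, *Smad3* was -0.082 with quantile normalization, -0.061 with median-ratio scaling and -0.11 with scaling to *Cdh1*, and *Tgfb3* was -0.015 with the Y-linked covariate. With 1 library left out, *Tgfb3* ran from -0.21 to 0.95, *Tgfbr1* from -0.020 to 0.47, *Itgav* from -0.31 to 0.50, *Smad3* from -0.069 to 0.21, *Smad7* from -0.35 to 0.072 and *Skil* from -0.73 to 0.11. Between the BLM groups, *Tgfbr2* was 0.035 with quantile normalization and 0.077 with scaling to *Cdh1*, *Tgfbr1* 0.037 with the latter, and *Itgav* 0.013 with median-ratio scaling, 0.10 with scaling to *Cdh1* and 0.0039 with the pseudocount of 0.1. With 1 library left out, *Tgfb3* ran from -0.50 to 0.66, *Tgfbr1* from -0.31 to 0.18, *Tgfbr2* from -0.24 to 0.19, *Itgav* from -0.35 to 0.47 and *Smad7* from -0.091 to 0.25. Between the PBS groups, *Tgfb2* was -0.42 and *Tgfb3* -0.011 with quantile normalization, *Tgfb3* -0.41 with the Y-linked covariate, and *Itgb6* 0.016 and *Smad7* 0.081 with scaling to *Cdh1*. With 1 library left out, *Tgfb2* ran from -0.096 to 0.23, *Tgfb3* from -0.012 to 0.20 and *Smad7* from -0.41 to 0.11. In Atg5-/- AT2-BLM against Atg5-/- AT2-PBS, scaling to *Cdh1* gave -0.081 for *Tgfb3*, -0.15 for *Tgfbr2*, -0.16 for *Smad3* and -0.10 for *Smad7*, and the Y-linked covariate -0.088 for *Tgfb2*. With 1 library left out, *Smad3* ran from -0.016 to 0.40 and *Smad7* from -0.11 to 0.36. The cause of these turns was not tested. Levels under 1 FPKM, as for *Tgfb1* and *Tgfb2*, rest on few fragments.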
